A study of Rattus norvegicus with 47 samples.

Results

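The comparison described here was of rat liver 16 h after a dose of all-trans-retinoic acid (RA) with rat liver 10 h after it. Its 7 arrays were chosen by their titles alone: 3 arrays of the 16 h group and 4 arrays of the 10 h group, out of 16 arrays in the RA time-course experiment and 47 in the series. All 7 animals were female Sprague-Dawley rats of 8 weeks, born to dams on a vitamin A-deficient purified diet and kept on that diet from weaning, and each received about 100 µg of RA. The stated difference in treatment between the groups was the time between the dose and killing, 10 h or 16 h. Vitamin A deficiency was therefore common to both groups, and no vehicle-treated animal entered the comparison, so a difference below is between times after RA and not between RA and no RA. Each array was hybridised with RNA from the liver of 1 rat, so n counts animals. Feeding was free and the room had a dark and a light phase of 12 h each, but the hour of dosing and of killing was not given, and with 1 time per group the time after RA and the time of day or feeding cannot be told apart.

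RA is the acid form of vitamin A and acts through nuclear receptors that switch on, among other genes, the enzymes that clear it again, above all the cytochrome P450 enzymes of the CYP26 family. The liver also carries a circadian clock, in which BMAL1 and CLOCK or NPAS2 activate the Per, Cry and Nr1d genes, whose proteins feed back on the activators, and in which DBP and NFIL3 act in opposite directions on a common set of sites. Bile acid synthesis from cholesterol begins with CYP7A1 and is among the liver pathways known for a strong daily rhythm.

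Levels are log2 hybridisation signals relative to the median of each array, as deposited (the log base was inferred from the range of values), so 1 unit is a doubling and 0 is the array median. A probe set is called here when limma's moderated test on the 7 arrays gave a Benjamini-Hochberg adjusted p below 0.05 over all 21338 probe sets tested, and a gene is represented by its probe set with the highest mean. Errors of levels are SD and errors of differences are SE, with n = 4 at 10 h and n = 3 at 16 h unless stated. Albumin (Alb), the defining product of hepatocytes, was far above the median on all arrays, at 9.17 to 9.59 at 10 h and 9.54 to 10.88 at 16 h. The arrays were not equally alike. Correlations between pairs of 10 h arrays were 0.767 to 0.798, and those between pairs of 16 h arrays were 0.65 to 0.719. Pairs of a 10 h and a 16 h array had correlations of 0.671 to 0.785. Some pairs across the groups were thus more alike than any pair of 16 h arrays. Replicates 1 and 2 at 16 h stood apart from the other 5 arrays, with upper quartiles of 1.23 and 1.24 against 1.41 to 1.53, while 16 h replicate 3 lay within the range of the 10 h arrays at 1.43. The median difference of all tested probe sets was -0.27 on the deposited scale and -0.07 after quantile normalization, which forces the 7 arrays to 1 common distribution. Values are on the deposited scale unless quantile normalization is named.

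From 10 h to 16 h, few transcripts passed the test, and the largest rises among named genes were those of Cyp7a1, Dbp and Cyp8b1. On the deposited values, 73 probe sets (0.342% of those tested) were called, 13 higher (0.0609%) and 60 lower (0.281%) at 16 h. On quantile-normalized values the test called 79 (0.370%), of which 43 were higher (0.202%) and 36 lower (0.169%) at 16 h. Called in the same direction on both scales were 45 probe sets (0.211%), which is 61.6% of the first set and 57% of the second. All 13 rises were among them, with 32 of the 60 falls. The other 28 falls were called on the deposited values only, and 34 probe sets, 30 higher and 4 lower, were called after quantile normalization only. The share of rises among the calls was 17.8% on the deposited scale, 54.4% after quantile normalization and 50.6% after cyclic loess normalization. In the 13 rises and the 32 falls called on both scales the values of the 2 groups did not overlap, as was so of 2.26% (higher) and 8.03% (lower) of all tested probe sets.

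**Figure D1:**
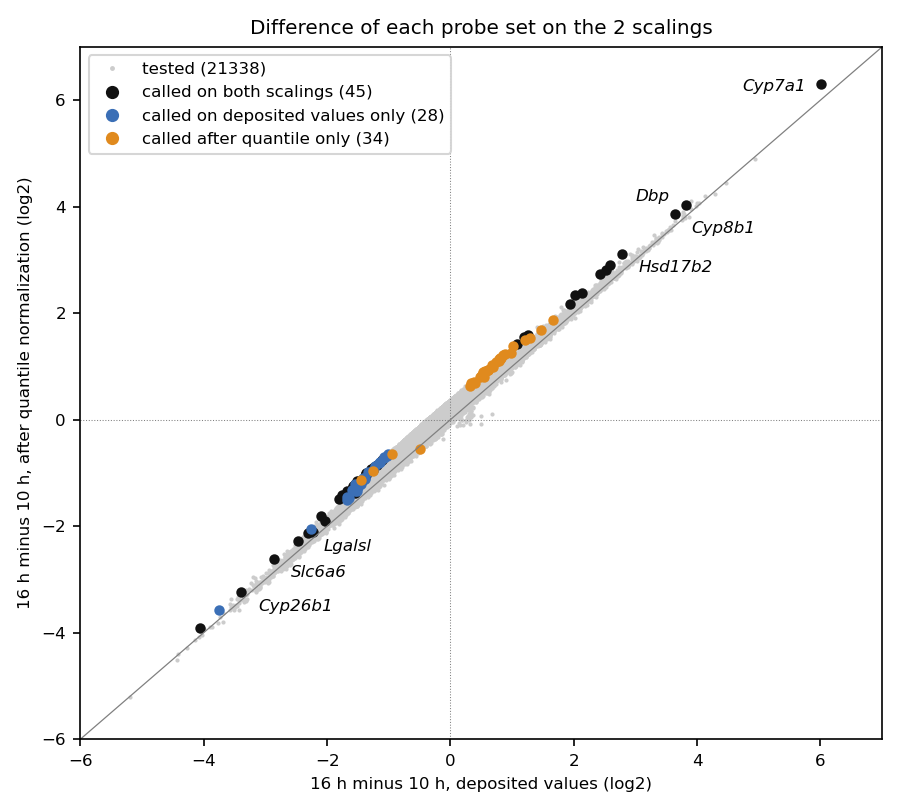
Difference between 16 h and 10 h of each of the 21338 tested probe sets, in log2 units, on the deposited values (x axis) and after quantile normalization (y axis). The diagonal marks equal differences. Most points lie above it, black points (45) were called on both scales, blue points (28, all falls) on the deposited values only, and orange points (34, of which 30 are rises) after quantile normalization only.

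The count of calls rested on the arrays. Leaving out 16 h replicate 3 raised it from 73 to 1877, of which 1848 were lower at 16 h, and leaving out 16 h replicate 2 reduced it to 13. Without 10 h replicate 1, 2, 3 or 4 it was 20, 22, 30 or 17, and without 16 h replicate 1 it was 57. With 16 h replicates 1 and 2 both left out, 35 were called, among them 16 of the 45, and the lone 16 h array was then assumed to vary like the 10 h group. A fit whose prior variance did not follow the signal level called 14, of which only Cyp8b1 was among the 45. All 45 kept their direction in each alternative fit of probe sets. Of these, 12 probe sets of 10 genes were called with each array left out in turn: Cyp7a1, Cyp8b1, Hsd17b2, Nr1d2 and 3 probe sets of Thrsp among the rises, and Cyp26b1, Slc6a6, Lgalsl, Hsd11b1 and Dusp6 among the falls.

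**Figure D2:**
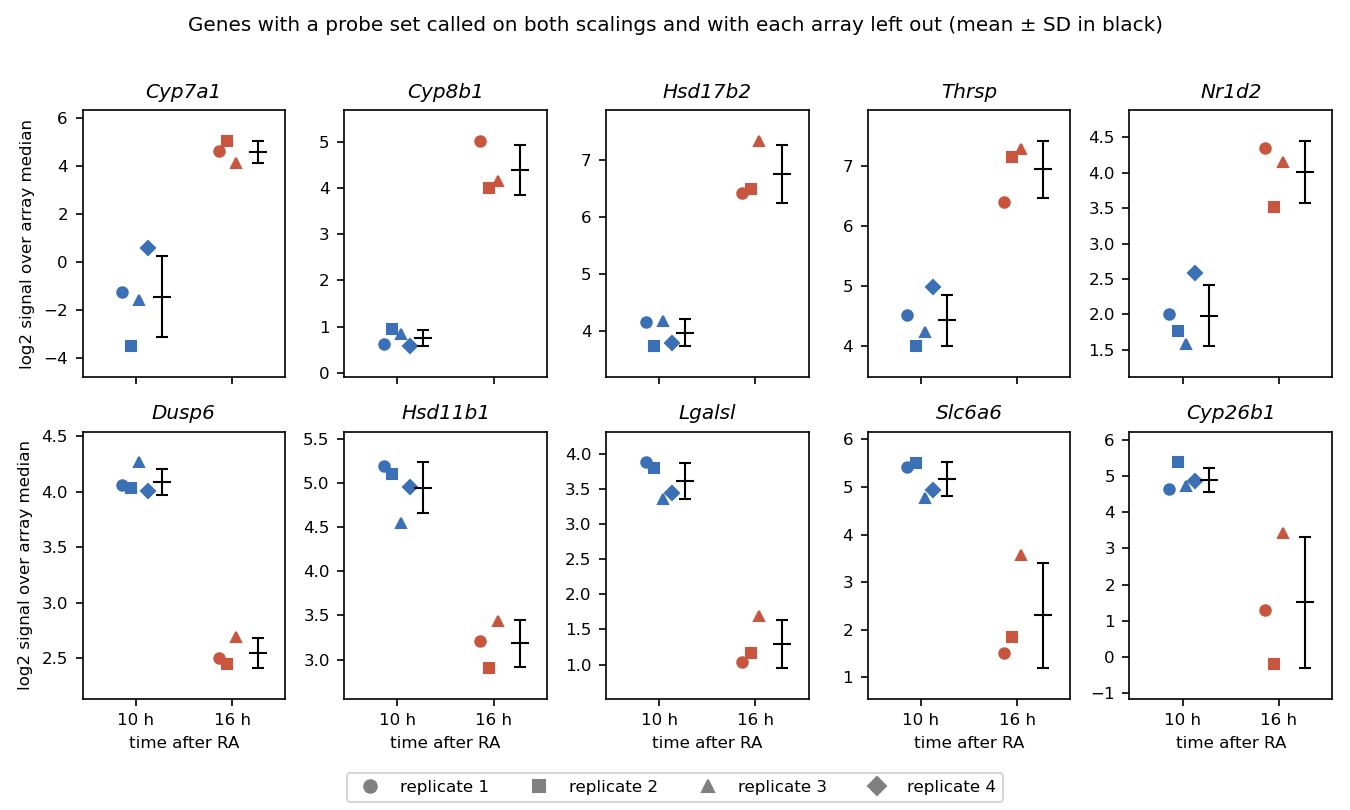
Level in each array (log2 signal over the array median) of the 10 genes with a probe set called on both scales and with each array left out, 10 h in blue and 16 h in red, with the symbol giving the replicate. Black bars are mean ± SD, and the vertical scale differs between panels. The groups do not overlap in any panel, and 16 h replicate 3 is the 16 h array nearest to the 10 h arrays for all 5 falls. Dusp6 is shown by the probe set that kept its call, not by its brightest one.

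Cyp7a1 and Cyp8b1, both enzymes of bile acid synthesis, had the first and the third largest rises among the genes called. Cyp7a1, the rate-limiting enzyme of the classic pathway, read -1.23, -3.51, -1.56 and 0.58 in the 4 livers at 10 h and 4.62, 5.03 and 4.12 in the 3 livers at 16 h. All 16 h livers were above all 10 h livers, and at 10 h only 1 liver exceeded the level used to filter dim probe sets, so the size of the rise rests on signals near the bottom of the scale. The difference was 6.02 ± 0.66 (64.7-fold, adjusted p = 0.000109) and 6.30 ± 0.69 after quantile normalization (adjusted p = 0.000229). Without 16 h replicates 1 and 2 it was 5.55, with an adjusted p of 0.114. Cyp8b1, the sterol hydroxylase that sets the ratio of cholic acid to other bile acids, was at 0.62, 0.94, 0.83 and 0.58 at 10 h and at 5.01, 4.00 and 4.15 at 16 h. The livers of a group lay close together, with an SD of 0.17 at 10 h and 0.55 at 16 h, and the groups did not overlap. It amounted to 3.64 ± 0.31 (12.5-fold, adjusted p = 3.38e-06), it was 3.86 ± 0.31 after quantile normalization, and it was the only gene of the 45 called in the fit without a trend in the prior (adjusted p = 0.0382).

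The other 23 measured genes of bile acid synthesis and transport did not follow these enzymes on the deposited scale. Of 25 tested genes on that list, 2 were called higher and none lower, against 0.402% of all 11448 named genes called in either direction (0.0786% higher, 0.323% lower). The median difference of the list was -0.34, beside -0.28 for all named genes. Abcc2, an export pump for conjugates into bile, had a difference of 0.61 ± 0.22 (adjusted p = 0.266) and became the third gene called higher after quantile normalization, at 0.94 ± 0.15 (adjusted p = 0.00689). Nr0b2, which encodes the repressor SHP, was 0.95 ± 0.37 higher without passing the test, and Cyp27a1 of the alternative pathway differed by -0.20 ± 0.21. Abcc2, Nr0b2 and Cyp27a1 were singled out after their values were seen.

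Thrsp was the one listed gene of de novo lipogenesis whose representative probe set was called higher on both scales. Thrsp, a thyroid hormone-responsive nuclear protein of lipogenic tissues, read 4.50, 3.98, 4.22 and 4.98 at 10 h and 6.40, 7.15 and 7.27 at 16 h. The groups were separated by more than 1 unit, and all 3 Thrsp probe sets were called. For the representative one the difference was 2.52 ± 0.26 (5.73-fold, adjusted p = 4.36e-05), and 2.82 ± 0.19 after quantile normalization. Of 30 tested genes of de novo lipogenesis, 18 were above 0, beside 3444 of all 11448 named genes. By representative probe sets Thrsp alone was called, where 0.402% of all named genes were. After quantile normalization 4 were called higher and none lower, against 0.297% of all named genes called higher on that scale. The additional 3 were Srebf1, the lipogenic transcription factor (0.86 ± 0.28 deposited, 1.22 ± 0.23 quantile, adjusted p = 0.0296), Fads1, a fatty acid desaturase (0.41 ± 0.23 and 0.69 ± 0.14, adjusted p = 0.0373), and Dgat2, which makes triglyceride (0.32 ± 0.21 and 0.63 ± 0.11, adjusted p = 0.0158). On the deposited values the groups overlapped for Srebf1, Fads1 and Dgat2. The list median was 0.12 on the deposited values and 0.43 after quantile normalization, against -0.28 and -0.06 for all named genes. Fatty acid synthase itself (Fasn) read 3.84, 3.25, 2.5 and 4.10 at 10 h and 3.56, 5.75 and 4.39 at 16 h; the groups overlapped, and the difference of 1.14 ± 0.40 did not pass (adjusted p = 0.264). Pklr, liver pyruvate kinase, is also on the list and was called higher on both scales by 1 of its 2 tested probe sets. That probe set, which is not the representative one, went from 0.93, 0.93, 0.98 and 1.26 to 3.07, 3.67 and 2.74. That difference was 2.14 ± 0.33 (adjusted p = 0.00464), while the brighter Pklr probe set differed by 0.69 ± 0.30 (adjusted p = 0.375), so the 2 probe sets disagreed in size. Srebf1, Fads1, Dgat2, Fasn and Pklr were also chosen after their values were seen.

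Hsd17b2, a hydroxysteroid dehydrogenase that inactivates estradiol and testosterone, rose from 4.17, 3.74, 4.19 and 3.80 to 6.43, 6.50 and 7.34. The lowest 16 h liver stood more than 2 units above the highest 10 h liver. The rise of 2.78 ± 0.24 (6.88-fold, adjusted p = 3.38e-06) was 3.12 ± 0.14 after quantile normalization, and it was 3.36 with 16 h replicates 1 and 2 left out (adjusted p = 8.69e-07). The rises of Ccnd1, Rcan1 and Herpud1 were smaller. Ccnd1, the cyclin that starts cell-cycle entry, was at 2.73, 2.13, 2.45 and 2.12 at 10 h and at 3.50, 3.45 and 3.86 at 16 h, a difference of 1.25 ± 0.26 (adjusted p = 0.0443), or 1.58 ± 0.21 after quantile normalization. Of its 2 other tested probe sets, neither was called on the deposited values. They differed by 0.66 ± 0.35 (adjusted p = 0.457) and 1.21 ± 0.32 (0.126). The latter was called after quantile normalization (1.49 ± 0.28, adjusted p = 0.0258), the former was not (0.393). By representative probe sets, Ccnd1 was the only one of 30 tested cell-cycle genes to be called, where 0.402% of all 11448 named genes were. Of the 30, 3 were above 0, beside 3444 of all 11448 named genes. Rcan1, an inhibitor of calcineurin, differed by 1.19 ± 0.23 (adjusted p = 0.0283; 1.55 ± 0.23 after quantile normalization), and Herpud1, of endoplasmic reticulum protein degradation, by 1.08 ± 0.23 (adjusted p = 0.0443; 1.42 ± 0.18). Herpud1 was likewise alone among 28 tested genes of endoplasmic reticulum stress, of which 5 were above 0. The same shares over all named genes apply to that list. The calls of Ccnd1, Rcan1 and Herpud1 were lost when single arrays were left out, with adjusted p of up to 0.211, 0.157 and 0.225; each kept its call without 16 h replicate 3, and of the other 6 arrays Ccnd1 kept it without 16 h replicate 1 and Rcan1 without 10 h replicate 3.

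Of the core clock genes, Dbp and Nr1d2 rose and Nfil3 and Cry1 fell. Dbp, an activator of clock output, was at 0.65, -2.57, 0.46 and -1.71 at 10 h and at 2.62, 2.90 and 3.55 at 16 h. The 10 h livers spread over more than 3 units, yet none reached the lowest 16 h liver. At 10 h only 2 of them exceeded the level used to filter, so here too the size rests on dim signals. Its difference was 3.82 ± 0.68 (14.1-fold, adjusted p = 0.0169) and 4.03 ± 0.67 after quantile normalization, and the call was lost without 10 h replicate 4 (adjusted p = 0.0586) or 16 h replicate 2 (0.137). Nr1d2, the repressor REV-ERB beta, went from 2.00, 1.77, 1.58 and 2.58 to 4.35, 3.52 and 4.16. This rise of 2.03 ± 0.29 (4.07-fold, adjusted p = 0.00252), or 2.33 ± 0.27 after quantile normalization, was called by both of its tested probe sets, though not as their mean with a further dim one (adjusted p = 0.197). Its relative Nr1d1 read 0.18, 0.10, -1.36 and -4.49 at 10 h and 1.65, 2.17 and 3.12 at 16 h. These groups did not overlap either, but with an SD of 2.18 at 10 h the difference of 3.71 ± 0.93 was not called (adjusted p = 0.103). Per2 differed by 1.97 ± 0.72 (adjusted p = 0.281), Per1 by 1.11 ± 1.10 and Bhlhe41 by 2.24 ± 1.21, none of them called. Tef, a relative of Dbp, differed by 1.19 ± 0.71 in its representative probe set and by -0.12 as the mean over its probe sets. Per3 was too dim to be tested.

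Nfil3 and Cry1 went the other way. Nfil3, the repressor that competes with DBP for its sites, was at 3.24, 2.80, 2.58 and 3.01 at 10 h and at -0.31, 0.22 and 2.10 at 16 h. Replicate 3 was 2 units above the other 16 h livers, and the difference of -2.23 ± 0.44 (adjusted p = 0.0375; -2.12 ± 0.43 after quantile normalization) kept its call, of the 7 fits with 1 array left out, only in that without 16 h replicate 3 (adjusted p up to 0.201 in the rest). Cry1, a repressor of BMAL1 and CLOCK, went from 2.23, 2.46, 2.66 and 2.86 to 0.16, 0.71 and 0.67. The 16 h livers lay close together and more than 1 unit below all 10 h livers. Its difference of -2.04 ± 0.35 (4.12-fold lower, adjusted p = 0.0123), or -1.90 ± 0.34 after quantile normalization, lost the call without 10 h replicate 2, 3 or 4 (adjusted p = 0.0927, 0.0743 and 0.123). The activators themselves were not called. Bmal1 read 2.53, 1.60, 1.73 and 1.93 at 10 h and -2.33, 0.70 and 1.19 at 16 h, Npas2 read 1.72, 1.38, 2.19 and 1.30 and then -2.59, 1.05 and 0.92, and Clock read 3.05, 3.09, 2.76 and 2.54 and then 0.41, 1.98 and 1.78. In all 3 the groups did not overlap and 16 h replicate 1 was the lowest array, and the differences were -2.09 ± 0.65 (adjusted p = 0.213), -1.85 ± 0.70 (0.3) and -1.47 ± 0.36 (0.0925). Cry2 differed by -1.63 ± 0.72 (adjusted p = 0.375) and by 0.22 without 16 h replicates 1 and 2. In total, 2 of 19 tested core clock genes were called higher and 2 lower, where 0.0786% and 0.323% of all named genes were, and the same 4 genes were called after quantile normalization.

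Promoter sequence, from 250 bases before to 50 after each start site in RefSeq (build GRCr8), was found for 12 clock genes named by a fixed list and for 14 of the other genes of largest difference, Nfil3 among them, and searched on both strands for the E-box CACGTG bound by BMAL1 with CLOCK, the D-box TTANGTAA bound by DBP and NFIL3, and the element ANTAGGTCA bound by REV-ERB and ROR proteins. They were present in 6.43%, 2.24% and 0.656% of 33365 promoters of that length. The 5 clock genes with a match are shown, with the match in capitals. None of the 5 was itself called. The Nr1d1 match, in 1 of its 2 promoter entries, starts 191 bases before the start site (chr10:84229630-84229655, minus strand), that of Tef 198 (chr7:115206619-115206644, plus), that of Bhlhe41 48 (chr4:180569388-180569413, minus), that of Per2 192 (chr9:99497168-99497195, minus) and that of Bmal1 18 (chr1:176766300-176766328, plus).
Nr1d1, E-box: tcagctcccaCACGTGtctggggatc
Tef, E-box: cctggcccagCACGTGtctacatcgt
Bhlhe41, E-box: gtacgttccgCACGTGagctgggtgc
Per2, D-box: catgtgcgtcTTATGTAAagagagcgac
Bmal1, REV-ERB and ROR element: gaaggcagaaAGTAGGTCAgggacggagg
No match was present in the windows of Dbp, Nr1d2 or Nfil3, nor in those of Cyp8b1, Thrsp or Cyp26b1. Of the 14 other genes searched, only Aass held a match, of the REV-ERB and ROR element. Cry1, Cyp7a1, Hsd17b2, Ccnd1, Clpx, Hsd11b1, Lgalsl, Pnrc1 and Rab38 were not searched. These are matches of letters, and binding was not measured.

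Among the RA-clearing enzymes, Cyp26b1 was at 4.64, 5.38, 4.72 and 4.85 at 10 h and at 1.30, -0.19 and 3.41 at 16 h. The 16 h livers were all lower but spread over more than 3 units, with replicate 3 nearest to the 10 h group. The fall of 3.39 ± 0.50 (10.5-fold, adjusted p = 0.00309) was 3.24 ± 0.50 after quantile normalization. It was -1.49 with replicates 1 and 2 left out (adjusted p = 0.0208), and as the mean with its dim second probe set it was not called (adjusted p = 0.27). Cyp26a1, the main RA hydroxylase of liver, read 3.40, 5.44, 3.90 and 3.41 at 10 h and 0.38, -2.71 and 4.16 at 16 h. The groups overlapped, because replicate 3 at 16 h was as high as the 10 h livers, and the difference of -3.43 ± 0.93 was not called (adjusted p = 0.145); without replicates 1 and 2 it was 0.12. Dhrs3, which returns retinaldehyde to retinol, went from 5.04, 4.98, 4.72 and 4.87 to 3.37, 3.76 and 4.24. It was called on both scales, by -1.12 ± 0.23 (adjusted p = 0.0413) and -0.76 ± 0.15 (0.0296), and lost the call in 6 of the 7 fits that left out 1 array, all but that without 16 h replicate 3. Lrat, which esterifies retinol for storage, was at 3.95, 3.44, 3.60 and 3.71 at 10 h and at 1.55, 1.14 and 3.41 at 16 h, lower in each liver, but its difference of -1.64 ± 0.38 missed the threshold (adjusted p = 0.0795).

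The other retinoid genes were not called. Rarb, an RA receptor and RA target, differed by -0.94 ± 0.28 (adjusted p = 0.202). Cyp2c22, a retinoid-responsive P450, differed by -0.93 ± 0.30 (adjusted p = 0.239) and by -0.85 ± 0.18 after quantile normalization (0.0614). For Cyp3a9 the sign depended on the scale, at -0.19 ± 0.26 deposited and 0.15 ± 0.18 after quantile normalization. Of 33 tested genes of retinoid metabolism and RA receptors, Cyp26b1 and Dhrs3 were called lower and none higher, beside 0.323% and 0.0786% of all named genes. These 2 were also the only calls among 21 tested genes listed as raised by RA in liver, whose median difference of -0.94 (-0.75 after quantile normalization) was the lowest of the 33 lists with at least 10 tested genes, beside -0.28 (-0.06) for all named genes. That list was drawn up with earlier results of these samples known and is not independent evidence of its direction. Lrat is also a marker of stellate cells, which store retinoid. The summed signal of 22 stellate cell and matrix markers on the array, in multiples of the array median, was 83.7 to 104 at 10 h and 42.8 to 76.4 at 16 h. None of the 20 tested was called, and 4 were above 0, beside 3444 of all 11448 named genes. Their part in the retinoid differences was not tested. In whole liver, fewer cells of a type and less RNA per cell cannot be told apart.

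**Figure D3:**
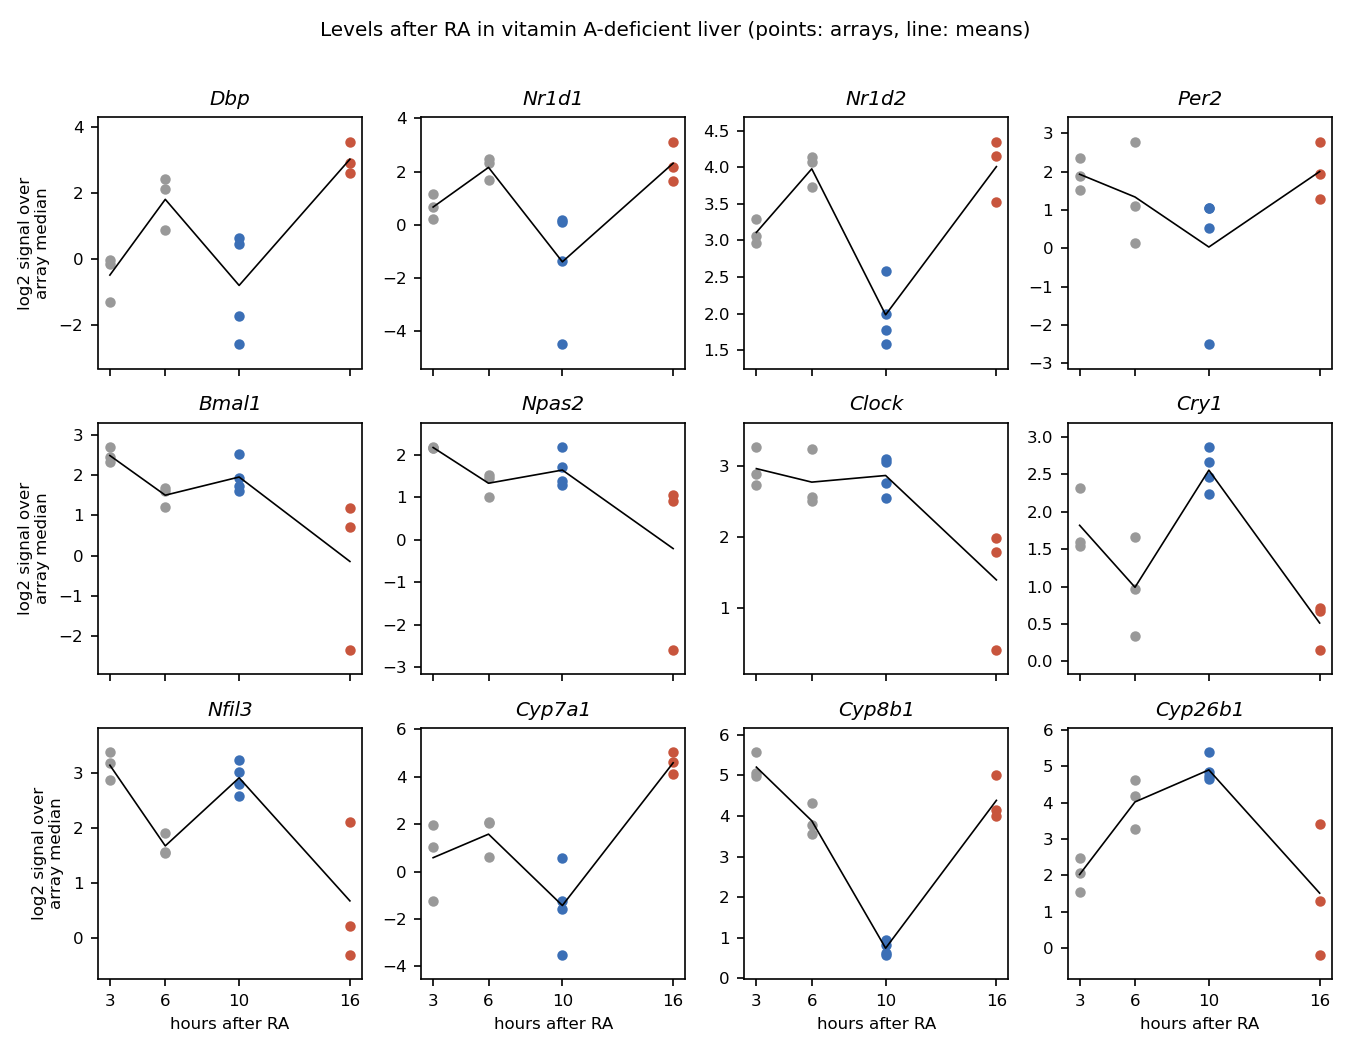
Levels of 12 genes (log2 signal over the array median) in each array at 3, 6, 10 and 16 h after RA, with lines through the group means; 10 h is in blue, 16 h in red and the earlier times, which entered no test, in grey. Dbp, Nr1d1, Nr1d2, Cyp7a1 and Cyp8b1 have their lowest mean at 10 h, Cyp26b1 has its highest mean there, and Bmal1, Npas2 and Clock have their lowest mean at 16 h.

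The levels at 3 h and 6 h, with 3 livers each, place these differences in the time course without a test. The probe sets were chosen for this contrast, and each count is set beside the share over all tested probe sets with a difference in the same direction. These shares were not matched on the size of the difference, so they do not remove the effect of that choice. The 13 rises are probe sets of 10 genes and are not independent of each other. For 12 of the 13 rises called on both scales, 10 h had the lowest mean of the 4 times after RA, as it had for 52.4% of the 7257 tested probe sets that were above 0. For 10 of the 13 the 3 h mean, and for 11 the 6 h mean, was nearer to the 16 h mean than to the 10 h mean, beside 55% and 51.1%. Cyp8b1, for example, had means of 5.21 ± 0.32 at 3 h and 3.88 ± 0.41 at 6 h, against 0.74 ± 0.17 at 10 h and 4.39 ± 0.55 at 16 h. Hsd17b2 likewise had its lowest mean at 10 h, with 5.73 ± 0.21, 6.50 ± 0.41, 3.97 ± 0.24 and 6.75 ± 0.51 at the 4 times, and so had Thrsp, with 6.66 ± 0.59, 6.66 ± 0.12, 4.42 ± 0.43 and 6.94 ± 0.47. Cyp7a1 differed in that its 16 h mean of 4.59 ± 0.46 was well above the 3 h and 6 h means of 0.59 ± 1.67 and 1.58 ± 0.84. For 31 of the 32 falls called on both scales, 16 h had the lowest of the 4 means, as it had for 77.8% of the 14081 tested probe sets below 0. For 3 of the 32 the 3 h mean was nearer to the 16 h mean, beside 20.9%. Cyp26b1 rose through 2.02 ± 0.46 at 3 h and 4.02 ± 0.69 at 6 h to its 10 h mean of 4.90 ± 0.33, and Nfil3 had a 6 h mean of 1.67 ± 0.21, between its 10 h mean of 2.91 ± 0.28 and its 16 h mean of 0.67 ± 1.27.

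Slc6a6, Lgalsl, Hsd11b1 and Dusp6 also fell on both scales. Slc6a6, the taurine transporter, was at 5.43, 5.49, 4.78 and 4.94 at 10 h and at 1.5, 1.85 and 3.56 at 16 h. All 16 h livers were lower by more than 1 unit, and the difference of -2.85 ± 0.35 (7.23-fold lower, adjusted p = 0.000375) was -2.61 ± 0.30 after quantile normalization. A second Slc6a6 probe set was called on the deposited values (-2.25 ± 0.48, adjusted p = 0.0475) and not after quantile normalization (-2.05 ± 0.45, 0.0712). Lgalsl, a galectin-like protein, went from 3.87, 3.79, 3.35 and 3.44 to 1.03, 1.17 and 1.68, a difference of -2.32 ± 0.28 (adjusted p = 0.000242), or -2.12 ± 0.24 after quantile normalization, with no overlap. A dimmer second Lgalsl probe set differed by -1.15 ± 0.63, with overlapping groups. It was not called on the deposited values (adjusted p = 0.468) or after quantile normalization (0.602). Hsd11b1, which regenerates active glucocorticoid in liver, went from 5.20, 5.10, 4.55 and 4.96 to 3.21, 2.91 and 3.44. The difference was -1.77 ± 0.22 (3.4-fold lower, adjusted p = 0.00047), or -1.42 ± 0.18 after quantile normalization. It was the only call among 18 tested glucocorticoid-induced genes, beside 0.402% of all 11448 named genes called. Dusp6, a phosphatase that switches off ERK kinases, was called by all 3 of its probe sets, the representative one at 4.81, 4.49, 4.39 and 4.46 and then 3.49, 2.87 and 3.13. That probe set differed by -1.37 ± 0.22 (adjusted p = 0.00742), or by -1.0 ± 0.21 after quantile normalization. It lost its call without 10 h replicate 1 (adjusted p = 0.0505) and without 16 h replicate 2 (0.119). Only 1 of the 3 Dusp6 probe sets kept its call with each array left out. Dusp6 was the only one of 24 tested immediate early and feedback genes to be called, beside 0.402% of all named genes. The summed signal of that list was 132 to 166 at 10 h and 98.2 to 106 at 16 h.

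Further falls called on both scales lost their calls in some of the 7 fits that left out 1 array: Aass, Cyp3a18 and Ifgga2l1 in 6, Pnrc1 and LOC102549828 in 5, Acot2 in 4, Avpr1a in 3 and Clpx in 1. Aass, which starts lysine breakdown, read 6.68, 6.77, 6.10 and 6.68 at 10 h and 2.94, 4.35 and 6.08 at 16 h. Replicate 3 was thus just below the lowest 10 h liver, and the difference of -2.10 ± 0.44 (adjusted p = 0.0443), or -1.81 ± 0.35 after quantile normalization, was -0.48 with the other two 16 h livers left out. Pnrc1, a nuclear receptor coactivator, went from 4.96, 4.89, 5.03 and 4.95 to 2.18, 2.97 and 4.27, a difference of -1.82 ± 0.33 (adjusted p = 0.0169) that was -1.50 ± 0.25 after quantile normalization and -0.69 without 16 h replicates 1 and 2. Clpx, the chaperone subunit of a mitochondrial protease, fell by 1.59 ± 0.25 (adjusted p = 0.00464) and lost its call without 16 h replicate 2 (0.124). Acot2, a mitochondrial acyl-CoA thioesterase, had 16 h values of 1.98, 1.94 and 1.87 against 3.79, 2.96, 3.36 and 3.70 at 10 h. Here the 16 h livers agreed within 0.05 (SD), and the fall was 1.53 ± 0.27 (adjusted p = 0.0143). Another tested Acot2 probe set read 2.45, 1.27 and 2.52 at 16 h, and its groups overlapped. Its difference of -0.53 ± 0.33 was not called (adjusted p = 0.528, and 0.838 after quantile normalization). Acot2 was the only call among 36 tested genes of fatty acid oxidation, of which 7 were above 0. Their median was -0.50 (-0.21 after quantile normalization). Of all 11448 named genes 0.402% were called and 3444 were above 0, with a median of -0.28 (-0.06 after quantile normalization). Avpr1a, a vasopressin receptor of hepatocytes, fell by 1.48 ± 0.24 (adjusted p = 0.00837), and Cyp3a18, a drug-metabolizing P450, by 1.19 ± 0.24 (adjusted p = 0.0443). Ifgga2l1 and LOC102549828 fell by 1.54 ± 0.30 and 2.46 ± 0.46, the latter with a second probe set that differed by 0.36 ± 1.04. Of the 32 falls called on both scales, 16 h replicate 3 was the 16 h array nearest to the 10 h group in 28, against 3 of the 13 rises.

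**Figure D4:**
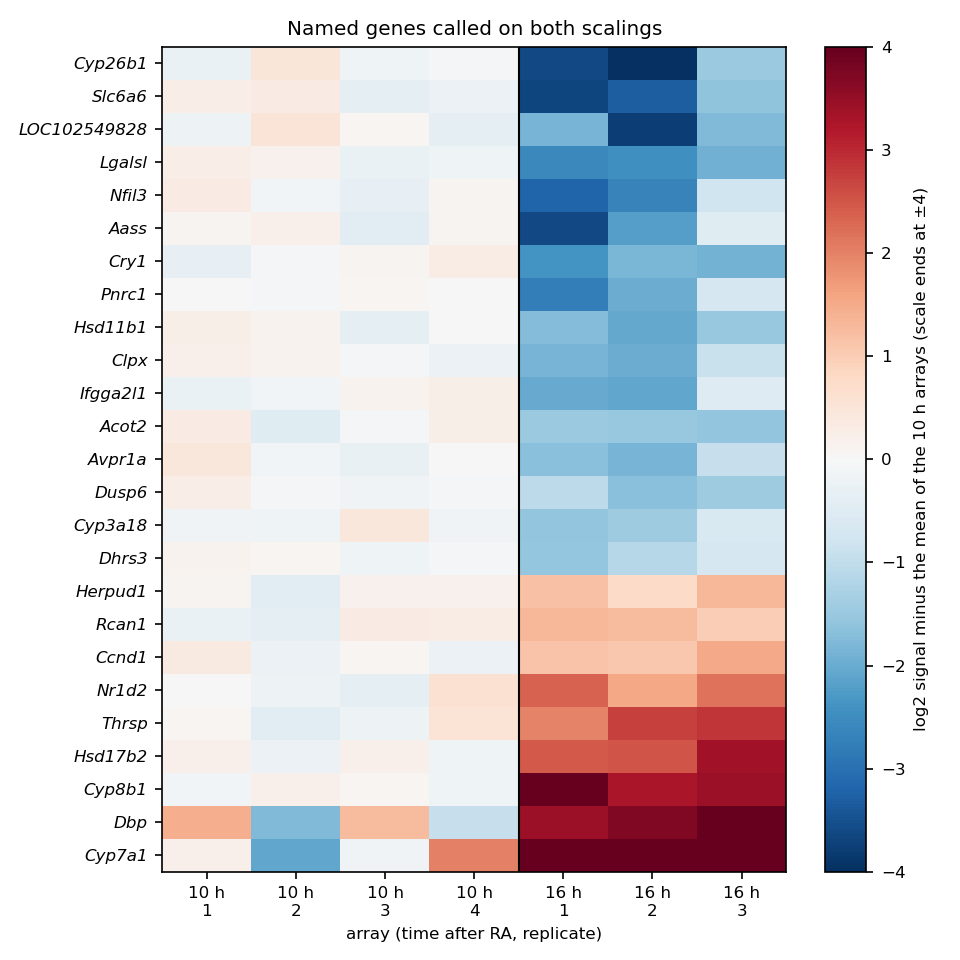
Level of the 25 named genes whose representative probe set was called on both scales, in each of the 7 arrays, as log2 signal minus the mean of the 10 h arrays (red higher, blue lower, colour scale limited to ±4). The 9 rises have similar colours in all 3 arrays at 16 h, whereas many of the falls, such as Aass, Nfil3 and Ifgga2l1, are paler in 16 h replicate 3.

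The falls that did not remain after quantile normalization were of similar size on the deposited scale. The 28 had a median size of 1.42, beside 1.54 for the 32 that remained, and of 1.13 and 1.23 after quantile normalization. By representative probe sets, the largest among named genes were Asap2, a regulator of ARF GTPases (-1.67 ± 0.34, adjusted p = 0.0443 deposited and 0.0791 after quantile normalization), Svil, an actin-binding protein (-1.65 ± 0.35, 0.0443 and 0.0712), Rab38, a small GTPase (-1.59 ± 0.33, 0.0443 and 0.0677), Thoc5, of mRNA export (-1.54 ± 0.33, 0.047 and 0.0581), and Dapk1, a death-associated kinase (-1.47 ± 0.30, 0.0407 and 0.0519). Their adjusted p-values on both scales lay close to the threshold, so these 5 are not shown to differ in kind from the falls that remained. Svil had 2 other tested probe sets, at 1.92 ± 1.21 and 2.13 ± 0.98, which pointed the other way, and the mean over its probe sets was 0.92. Foxa2, a hepatocyte transcription factor, was called on the deposited values (-1.15 ± 0.25, adjusted p = 0.049) and not after quantile normalization (-0.80 ± 0.18, 0.0843).

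The reverse held for other hepatocyte regulators. Hnf4a read 5.53, 5.50, 4.67 and 5.63 at 10 h and 5.77, 6.77 and 6.41 at 16 h, and Cebpa read 4.07, 3.84, 4.15 and 4.26 and then 4.81, 4.71 and 5.12. Neither overlapped, and neither was called on the deposited values (0.98 ± 0.26 and 0.80 ± 0.21, adjusted p = 0.136 and 0.121), but after quantile normalization both were, at 1.25 ± 0.23 (adjusted p = 0.0182) and 1.15 ± 0.15 (0.00142). Slc2a2, the hepatocyte glucose transporter, passed only on that scale as well, at 0.92 ± 0.15 (adjusted p = 0.0101), as did Fdps of cholesterol synthesis, at 0.98 ± 0.18 (0.0158), Gnl3 of ribosome biogenesis, at 1.08 ± 0.22 (0.0456), and Hba-a3, a globin, at 1.15 ± 0.21 (0.0182). Lower on that scale only were Hal, of histidine breakdown, at -1.13 ± 0.22 (adjusted p = 0.0296) and Fgb, a fibrinogen chain, at -0.55 ± 0.11 (0.0456). On the deposited values the groups overlapped for Slc2a2, Fdps and Hal and did not for Gnl3, Hba-a3 and Fgb. Hnf4a, Cebpa, Slc2a2, Fdps, Hal and Fgb were singled out after their values were seen.

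**Figure D5:**
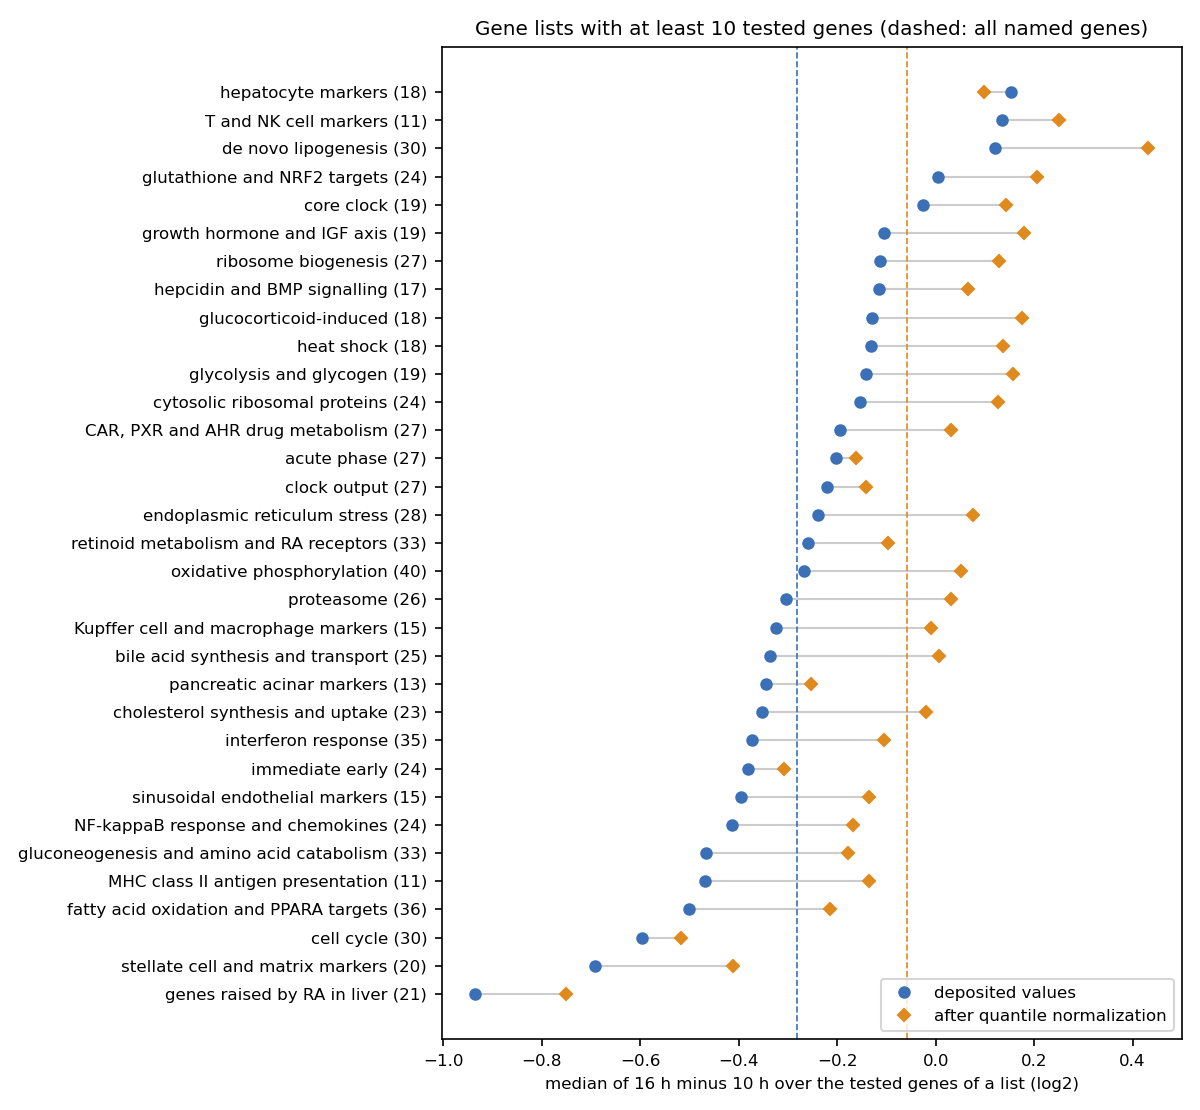
Median difference between 16 h and 10 h (log2) over the tested genes of each of the 33 lists with at least 10 tested genes, on the deposited values (blue circles) and after quantile normalization (orange diamonds), with the number of tested genes in parentheses. Dashed lines give the medians of all named genes, -0.28 and -0.06. The genes raised by RA in liver lie lowest on both scales, and de novo lipogenesis lies highest after quantile normalization.

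In the lists not yet named, few genes were called, and the sign of a list's median often followed the scale. Among 27 tested clock output genes Cyp7a1 was called higher and Avpr1a lower, and Cyp3a18 was the only call among 27 drug metabolism genes. Aass was the only one among 33 of gluconeogenesis and amino acid catabolism on the deposited values. Of all 11448 named genes, 0.402% were called on the deposited values and 0.515% after quantile normalization. No gene was called on either scale among 35 tested interferon response genes, 40 of oxidative phosphorylation, 24 cytosolic ribosomal proteins, 26 proteasome subunits, 18 heat shock genes, 24 glutathione and NRF2 targets, 19 of the growth hormone and IGF axis, 24 of the NF-kappaB response or 17 of hepcidin and BMP signalling. All 26 proteasome subunits were below 0 on the deposited values, where 3444 of all 11448 named genes were above 0. Their median was -0.30, and it was 0.03 after quantile normalization. Oxidative phosphorylation went likewise from -0.27 to 0.05, and the ribosomal proteins from -0.15 to 0.13. Ackr3, a scavenging chemokine receptor, had the widest gap among the uncalled genes named, at -0.35, 1.08, 1.57 and 1.21 at 10 h and -3.69, -3.37 and -3.55 at 16 h; the difference was -4.41 ± 1.08 (adjusted p = 0.0925), with all 16 h values under the level used to filter. Irf1, an interferon-induced transcription factor, differed by -1.57 ± 0.40 (adjusted p = 0.111). Insig2, which restrains cholesterol synthesis, was not called by its representative probe set (-1.37 ± 0.36, adjusted p = 0.12) and was called by another (-1.49 ± 0.29, adjusted p = 0.0309). After quantile normalization the latter was still called (-1.16 ± 0.20, adjusted p = 0.0118), and the representative one was not (-1.05 ± 0.28, 0.149). The call held in only 1 of the 7 fits that left out 1 array.

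Markers of other liver cells were not called on either scale. The summed signal of 15 Kupffer cell and macrophage markers was 142 to 202 at 10 h and 119 to 162 at 16 h, and that of 16 sinusoidal endothelial markers was 106 to 141 and 78.1 to 109. All 15 Kupffer cell markers and all 11 tested genes of class II antigen presentation were below 0 on the deposited values, with medians of -0.33 and -0.47 that became -0.01 and -0.14 after quantile normalization. Hepatocyte markers summed to 4280 to 5480 at 10 h and 5240 to 6620 at 16 h. Such sums are of unlogged signals and weigh the brightest markers, such as Alb, most. By contrast, the median difference of the 18 tested hepatocyte markers was 0.15, and 0.10 after quantile normalization, with 11 above 0 on the deposited values. B cell, neutrophil and pancreatic acinar lists were dim, with sums of at most 5.69, 9.27 and 17.1 at 10 h and 8.41, 6.63 and 13.7 at 16 h. No value of these lists was tested as a part of any difference above.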

How the data were processed

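The deposited values are signals from Affymetrix GCOS, per the submitters' processing notes (version not given in the sources used here). They were read as log2 with each array's median at 0; the log base is not stated and was inferred from the range of the deposited log2 values. That the base of the logarithm is 2 was taken from the range of the values. From these, 57 control probe sets were removed, and the 21338 of 31099 probe sets above their array's 40th percentile on at least 3 of the 7 arrays were tested with limma 3.58.1 in R 4.3.3 (group means, intensity trend, Benjamini-Hochberg). Quantile normalization of the 7 arrays was run in the same way, and the closing section gives the other alternatives. The platform annotation, with symbols checked in RefSeq, named 1 gene for 20832 probe sets, several for 436 and none for 9831, which stay unnamed. Named were the 15 largest called genes in each direction, 10 called on both scales and 5 lost after quantile normalization, up to 4 called or, where none was called, 2 uncalled members of each of 38 gene lists, and fixed clock and retinoid genes. Of 1001 list entries, 878 matched a probe set. Members and lists were chosen with earlier results of these data known. The number of arrays limits the precision. The code was tested on simulated data. Replicate numbers did not pair the arrays.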

Additional observations from a re-analysis of the deposited data

Results flagged for a closer look

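In 5 of 54 named genes, 1 liver of the 10 h group lay far from the other 3, by a test for a single far value that chance alone meets in about 1 group in 20. Per2 was at -2.5 in 10 h replicate 3, against 0.53 to 1.06 in the others, and Tef was at -2.21 in 10 h replicate 2, against 0.62 to 1.07. Herpud1 was at 3.38 in 10 h replicate 2, against 3.93 to 4.01. Aass was at 6.1 in 10 h replicate 3, against 6.68 to 6.77, and Cyp3a18 was at 5.85 in the same liver, against 5.22 to 5.27. The 16 h group, with 3 livers, was too small for this test.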

How the results depend on the processing

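Counts are given as all (higher, lower). They were 79 (43, 36) after quantile normalization, 89 (45, 44) after cyclic loess, 28 (9, 19) with the stricter filter, 14 (5, 9) without a trend, 279 (20, 259) with array weights, 303 (26, 277) and 205 (22, 183) with the spread shared over 13 and 16 arrays, and 35 (13, 22) without 16 h replicates 1 and 2, the last chosen after seeing the data. Leaving out 1 array gave 13 to 1877 (7 to 29 higher, 6 to 1848 lower), and 13 to 211 called on both scales. The replicate block gave 20 (9, 11), with correlations of -0.03, 0 and -0.016 between same-numbered arrays. In a fit on the mean over probe sets of each gene, 14 of the 25 named genes called on both scales lost their call. Of the 6 named genes called on the deposited values only, 5 lost it. The cause of these changes was not tested. Signs turned for Svil (0.92) and Tef (-0.12) as the mean over probe sets, for Cyp26a1 (0.12) and Cry2 (0.22) without 16 h replicates 1 and 2, and for Cyp3a9 after quantile (0.15) and cyclic loess (0.18) normalization, without 16 h replicates 1 and 2 (0.35) and in the fits that left out 1 array (-0.47 to 0.13, above 0 without 16 h replicate 1). Of 722 list medians under these settings, 68 moved by more than the spread between replicates.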
